A study of Mus musculus with 12 samples.

Results

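The translation initiation factor genes of mouse were described across spermatocytes that carried a knock-out or a wild-type label. They were taken by symbol, as every row of the expression table whose name starts with Eif and a digit between 1 and 6, without Eif2s3x and Eif2s3y, the X- and Y-linked genes of 1 eIF2 subunit. The rule found 56 genes among 23235. The cells were C57BL/6 spermatocytes sorted at pachytene or at leptotene/zygotene (LZ), with 3 libraries in each of 4 groups: Rnaseh1 knock-out (KO) pachytene, wild-type (WT) pachytene, KO LZ and WT LZ. Rnaseh1 encodes RNase H1, which cleaves the RNA of RNA:DNA hybrids. The labels give neither the ages of the animals nor the knock-out allele and any Cre driver, and do not say whether replicates came from separate animals, so p-values measure the spread between these libraries, which may be technical. All 12 libraries share the strain, the sorting and an amplification of cDNA made from polyadenylated RNA.

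Initiation brings a ribosome to the start codon of an mRNA. The factor eIF2 carries the initiator tRNA to the small subunit, eIF1 and eIF1A hold that subunit open while it scans for the start codon, and eIF3 is a scaffold on it. The cap-binding factor eIF4E, the scaffold eIF4G and the helicase eIF4A (together eIF4F) recruit the mRNA, and eIF4E-binding proteins compete with eIF4G for eIF4E. Spermatocytes store many mRNAs for later use, and in mice Eif4g3 is needed for male germ cells to leave meiotic prophase.

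Values are FPKM, a fragment count normalised for transcript length and library size, that the authors scaled between libraries with ERCC spike-in RNA. On that scale pachytene libraries lie far above LZ libraries. The scaling factors recovered from the digits of the table were 5.55 to 7.82 in KO pachytene and 3.91 to 4.91 in WT pachytene. At LZ they were 0.528 to 0.632 in KO and 0.705 to 1 in WT libraries. The factors thus differed between the labels, upward in KO at pachytene and downward in KO at LZ. In such bulk samples, more cells and more RNA per cell cannot be told apart. Calls are therefore given on the spike-in scale and again after median-ratio scaling, which sets the typical gene level across libraries (the median of gene-wise ratios to a geometric mean over libraries is the divisor). A gene was called where limma gave a Benjamini-Hochberg adjusted p under 0.05 over the 15400 genes with at least 1 FPKM in at least 3 libraries. Of the 56 genes 55 passed that filter, and Eif4e1b did not. Log2 changes are differences of log2(FPKM + 1) with the standard error (SE) of the fit, which makes changes of low genes look smaller. Rnaseh1 averaged 80.2 ± 13.0 FPKM in KO pachytene and 53.7 ± 2.74 FPKM in WT pachytene, and 14.7 ± 3.62 FPKM in KO LZ and 17.8 ± 2.39 FPKM in WT LZ (SD, n = 3 each). It was not lower in the pachytene libraries labelled KO, and its LZ libraries overlapped between the labels, so the text writes KO-labelled. No call was made for it (adjusted p = 0.0638 at pachytene and 0.407 at LZ). Summed markers of some other testis cells also differed between the labels. The 18 round spermatid markers summed to 0.375 to 0.494% of all FPKM in KO-labelled pachytene and 1.22 to 1.65% in WT pachytene, and to 0.274 to 1.48% in KO-labelled LZ and 2.33 to 3.80% in WT LZ. The 14 Sertoli cell markers in the table summed to 0.0277 to 0.0465% in KO-labelled pachytene and 0.108 to 0.134% in WT pachytene, and to 0.223 to 0.473% in KO-labelled LZ and 0.155 to 0.215% in WT LZ. The 10 spermatogonia markers summed to 0.00069 to 0.00258% in KO-labelled pachytene and 0.0105 to 0.0162% in WT pachytene, with 9 called lower on the spike-in scale. The 12 peritubular and endothelial markers summed to 0.00328 to 0.00509% in KO-labelled pachytene and 0.0174 to 0.0184% in WT pachytene, with 6 of 10 tested called lower there. Of 18 spermatid markers 13 and of 13 tested Sertoli markers 2 were called lower there, beside 14.3% of all genes, a share that the Sertoli count does not stand out from. At LZ the spermatogonia sums and the peritubular and endothelial sums overlapped between the labels. The 11 Leydig cell markers summed to 0.0446 to 0.110% in KO-labelled pachytene and 0.0953 to 0.269% in WT pachytene. The 12 blood and macrophage markers summed to 0.00932 to 0.0157% in KO-labelled pachytene and 0.00695 to 0.0271% in WT pachytene. Both of these lists overlapped between the labels. The part of these cells in the results was not tested. The 20 pachytene markers summed to 1.39 to 1.53% in KO-labelled pachytene and 0.999 to 1.18% in WT pachytene, against 0.415 to 0.533% in KO-labelled LZ and 0.454 to 0.589% in WT LZ. The stage labels thus went with their markers. Markers of other cells differed between the WT stages too, after median-ratio scaling. At pachytene 9 of 11 Leydig, 8 of 10 peritubular and 6 of 10 blood markers tested were called higher, beside 20.4% of all genes. Of these lists 0 markers were called lower. Of 13 Sertoli markers 0 were called, of 18 spermatid markers 2 higher, and of 10 spermatogonia markers 1 higher and 5 lower. As shares of all FPKM, the spermatid and Sertoli sums given above were nevertheless apart between the WT stages, and higher at LZ. Their part in the stage changes was not tested.

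Most initiation factor genes were higher in KO-labelled than in WT pachytene spermatocytes on the spike-in scale, and 2 of them, Eif1ax and Eif4ebp1, went far the other way. Of 55 genes, 28 were called higher and 3 lower, beside 24.6% and 14.3% of all genes tested. The median log2 change was 0.65 for the initiation factor genes and 0.37 for all genes. After median-ratio scaling 8 were called higher, beside 3.57% of all genes, and 2 lower, beside 9.62%, with medians of 0.30 and 0.05. The count of 28 fell to 3 without KO-labelled pachytene replicate 1 or without replicate 2, to 10 without WT pachytene replicate 1 and to 9 without WT pachytene replicate 2. The calls over all genes fell too. In those fits, in that order, 1371, 1348, 2165 and 2179 genes were called in either direction. With all libraries 3784 were called higher and 2196 lower. Eif1, Eif2s2, Eif3e, Eif1ax and Eif4ebp1 kept their calls whichever of the 6 pachytene libraries was left out. The plot of changes at pachytene shows each gene on both scales.

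**Figure D1:**
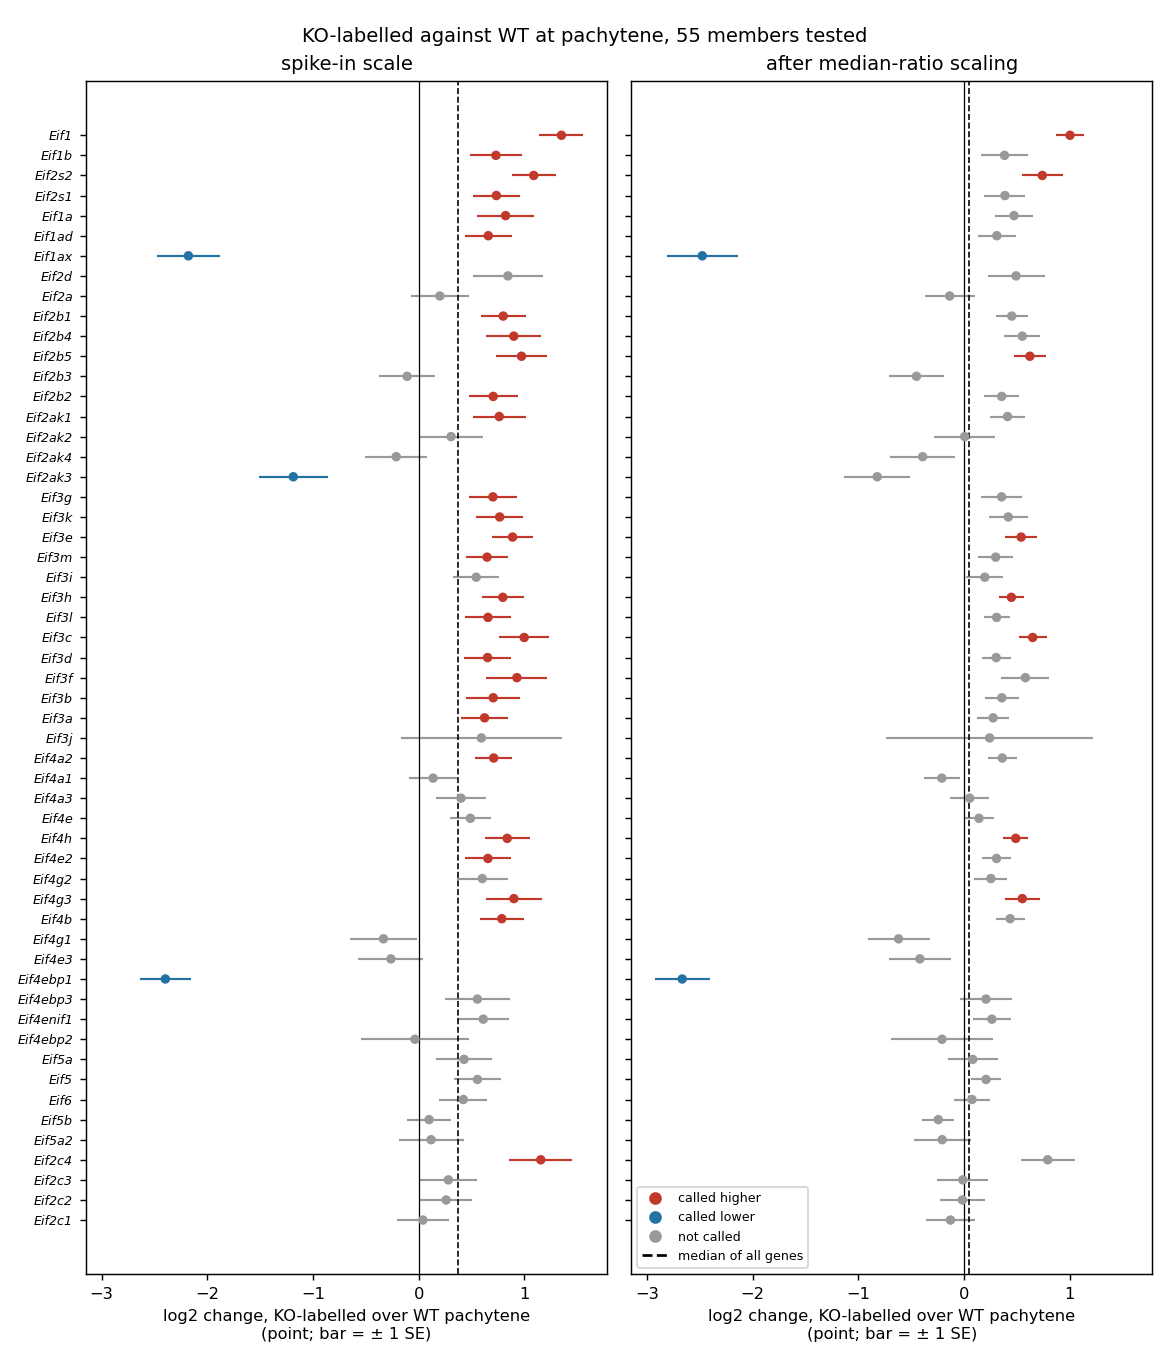
Log2 change of 55 initiation factor genes, KO-labelled over WT pachytene (x axis; point, with a bar of 1 SE on each side), on the spike-in scale (left) and after median-ratio scaling (right). Red genes were called higher, blue genes lower and grey genes in neither direction; the dashed line is the median of all 15400 genes. Eif1ax and Eif4ebp1 lie below -2 on both scales and Eif1 is the highest.

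At LZ few calls were made between the labels. On the spike-in scale limma called 0 of 55 genes higher, beside 0.136% of all genes, and 4 lower, beside 12.9%, with a median log2 change of -0.48 against -0.43 for all genes. The 4 were Eif1ad, Eif3b, Eif3i and Eif4e. At an unadjusted p under 0.05 limma had 0 higher and 25 lower. All genes were not counted at that threshold, on either scale. Of the 55 genes, 26 had a change above the median of all genes and 29 below it on the spike-in scale. After median-ratio scaling limma called 0 in either direction, beside 0.39% of all genes higher and 0.688% lower, with 5 higher and 1 lower at an unadjusted p under 0.05. The spike-in calls moved with single libraries: 0 were made without KO-labelled LZ replicate 2 or 3 or without WT LZ replicate 1 or 2, 1 without KO-labelled LZ replicate 1, and 14 without WT LZ replicate 3. Calls over all genes moved too. In either direction 343 and 88 were made without KO-labelled LZ replicate 2 and 3, and 7 and 4 without WT LZ replicate 1 and 2. Without KO-labelled LZ replicate 1 the number was 1881, and without WT LZ replicate 3 it was 2936. With all libraries 21 genes were called higher and 1992 lower.

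Between the stages almost every gene was higher at pachytene on the spike-in scale, as was most of the table. In WT, 48 of 55 were called higher and 0 lower, beside 80.9% and 0.487% of all genes, with a median log2 change of 1.99 against 1.64. In KO-labelled cells 51 were called higher and 2 lower, beside 76.8% and 2.83% of all genes, with medians of 3.21 and 2.29. After median-ratio scaling the WT calls split into 12 higher and 13 lower, beside 20.4% and 17.8% of all genes, and the KO-labelled calls into 24 higher and 14 lower, beside 31.7% and 29.3%. As a share of all FPKM of a library, the 56 genes summed to 0.903 ± 0.0102% in KO-labelled pachytene and 0.824 ± 0.0390% in WT pachytene, and to 1.00 ± 0.0245% in KO-labelled LZ and 0.934 ± 0.0245% in WT LZ (SD, n = 3 each). The map of levels shows this family by library.

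**Figure D2:**
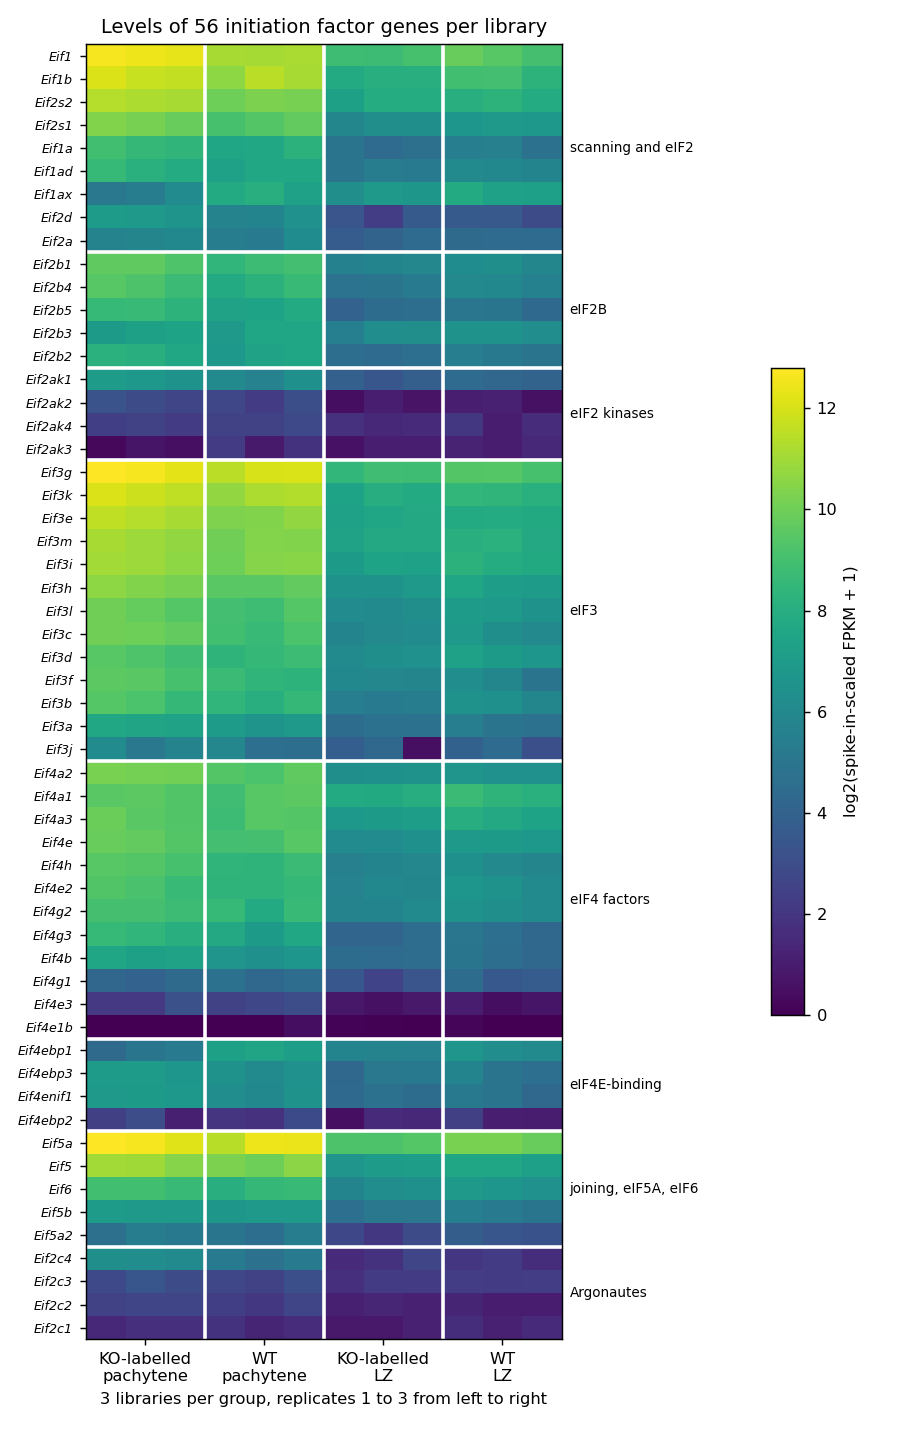
Level of each of the 56 genes (rows, ordered by role and then by mean) in each of the 12 libraries (columns), as log2(spike-in-scaled FPKM + 1) in colour. Nearly all rows are brighter in the 6 pachytene columns on the left than in the 6 LZ columns on the right; Eif1ax and Eif4ebp1 are darkest in KO-labelled pachytene, and Eif4e1b is at or near 0 throughout.

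The first role is scanning and tRNA delivery, with 9 genes. In KO-labelled pachytene 6 were called higher than in WT and 1 lower, beside 24.6% and 14.3% of all genes. After median-ratio scaling 2 were called higher and 1 lower, beside 3.57% and 9.62%. Eif1, which guards against starting at a wrong codon, had 6291, 5649 and 5128 FPKM in KO-labelled pachytene, against 2199, 2193 and 2274 FPKM in WT pachytene. All KO-labelled libraries were above all WT libraries, and limma put the log2 change at 1.35 with an SE of 0.21 (adjusted p = 0.00183), and only 131 of 15400 genes had a larger one. After median-ratio scaling the change was 1.00 (adjusted p = 0.00165). At LZ Eif1 had 451, 434 and 543 FPKM in KO-labelled and 918, 719.5 and 522 FPKM in WT libraries, which overlap. Its stage change in WT depends on the scale: 1.66 by spike-ins and -0.39 after median-ratio scaling, called in both.

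Eif1ax, the X-linked gene of eIF1A, fell. It had 33.9, 40.9 and 70.5 FPKM in KO-labelled pachytene, against 226, 266 and 159 FPKM in WT pachytene. The groups were apart, with a log2 change of -2.18 (SE 0.30, adjusted p = 0.00106) that became -2.48 after median-ratio scaling. At LZ it had 78.5, 119.6 and 108 FPKM in KO-labelled cells and 223, 159 and 147 FPKM in WT cells; on the spike-in scale these groups do not overlap either, but no call was made (adjusted p = 0.0862). After median-ratio scaling they overlapped, at a log2 change of -0.20 (adjusted p = 0.793). From LZ to pachytene the log2 change was -1.11 in KO-labelled cells (adjusted p = 0.00333) and 0.29 in WT cells (adjusted p = 0.369). After median-ratio scaling both were called lower at pachytene, at -4.03 in KO-labelled cells and -1.75 in WT cells.

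Eif1ax is the one X-linked member, and X-linked genes as a class were lower in KO-labelled pachytene. Of 537 tested, 317 were called lower and 3 higher, beside 14.3% and 24.6% of all genes, with a median log2 change of -1.09. Of these 537 genes 60, or 11.2%, had a lower change than Eif1ax. After median-ratio scaling 225 were called lower and 0 higher, beside 9.62% and 3.57% of all genes. The median was then -1.05, and 32 genes (5.96%) lay below Eif1ax. At LZ 15 of the 537 were called lower and 4 higher on the spike-in scale, beside 12.9% and 0.136% of all genes. As background, the X chromosome is largely silenced in pachytene spermatocytes.

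Eif1a, a second gene of eIF1A that lies on chromosome 18, rose. It had 488, 373 and 333 FPKM in KO-labelled pachytene, against 186, 199 and 294 FPKM in WT pachytene, without overlap. The log2 change was 0.82 (SE 0.27, adjusted p = 0.031), and the call was lost after median-ratio scaling (0.47, adjusted p = 0.101) and without KO-labelled replicate 1 or 2 or WT replicate 1 or 2 of pachytene (adjusted p = 0.0786 to 0.125). Its change from WT LZ to WT pachytene was 2.53 (log2), or 0.50 after median-ratio scaling, called in both. The coding sequences of the pair are identical at 85.6% of 432 aligned bases in the GENCODE annotation of GRCm38, so the authors' counting could have split fragments between them.

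The share of Eif1ax in the sum of both genes depends on no scaling between libraries. It was 11.3 ± 5.63% in KO-labelled pachytene and 49.1 ± 12.1% in WT pachytene, and 79.8 ± 6.11% in KO-labelled LZ and 82.0 ± 4.21% in WT LZ (SD, n = 3 each). Single libraries ran from 6.49 to 17.5% in KO-labelled pachytene, from 35.2 to 57.1% in WT pachytene, and from 73.1 to 85.1% over LZ. In each genotype both stages were apart, and at pachytene the labels were apart, each at p = 0.1 by exact permutation, which is as low as 3 libraries against 3 can go, or 0.24 after adjustment over the 36 comparisons of 9 such shares. At LZ the labels overlapped (exact permutation p = 0.7).

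**Figure D3:**
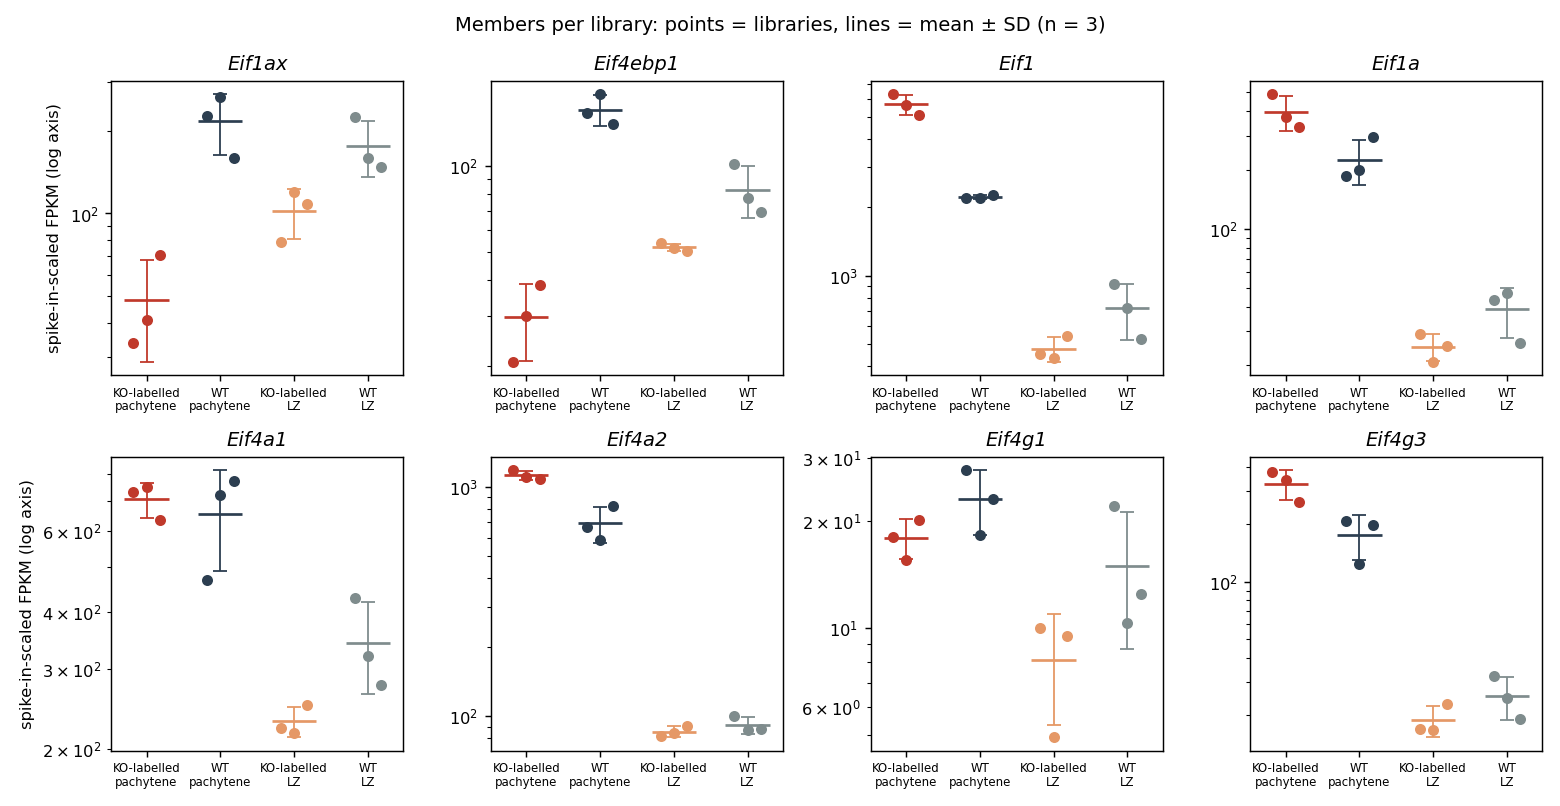
Spike-in-scaled FPKM (log axes) of 8 genes in each library, with the mean and SD of 3 libraries per group. Eif1ax and Eif4ebp1 are lowest in KO-labelled pachytene, where Eif1, Eif1a, Eif4a2 and Eif4g3 are highest; Eif4a1 and Eif4g1 overlap between the labels at pachytene.

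Among the other scanning genes, Eif2s2, the beta subunit of eIF2, had 2639, 2379.9 and 2197 FPKM in KO-labelled pachytene, against 996, 1238 and 1161 FPKM in WT pachytene. It rose by 1.09 on the log2 scale (SE 0.21, adjusted p = 0.00551), and by 0.74 after median-ratio scaling (adjusted p = 0.0309). Eif2s1, the alpha subunit whose phosphorylation limits initiation, averaged 1135 ± 227 FPKM in KO-labelled pachytene and 683 ± 153 FPKM in WT pachytene and was called higher on the spike-in scale. Eif1b, a close relative of Eif1, averaged 3634 ± 705 and 2224 ± 631 FPKM in KO-labelled and WT pachytene and was called higher on that scale too. Its share of Eif1 and Eif1b was 38.8 ± 2.25% in KO-labelled pachytene and 49.3 ± 7.27% in WT pachytene, which were apart, and 34.3 ± 2.97% in KO-labelled LZ and 37.4 ± 3.40% in WT LZ, which overlapped. Eif2d, which can place tRNA without eIF2, and Eif2a, a factor apart from eIF2 despite its name, were not called between the labels. Eif2a was the lowest of the role by the mean over all 12 libraries, at 56.5 ± 4.55 FPKM in KO-labelled pachytene and 51.2 ± 20.2 FPKM in WT pachytene. In KO-labelled pachytene Eif1ax was lower, and at LZ Eif2d was. Eif1ad, a gene with an eIF1A-like domain, was the one called at LZ: 29.2, 40.4 and 38.3 FPKM in KO-labelled LZ, against 68.2, 60.9 and 54.6 FPKM in WT LZ. Its log2 change of -0.76 (SE 0.22, adjusted p = 0.0425) became -0.19 after median-ratio scaling (adjusted p = 0.611).

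The 5 subunits of eIF2B, which reloads eIF2 with GTP, were called higher in KO-labelled pachytene in 4 cases, beside 24.6% of all genes. Eif2b5, the catalytic subunit, had 382, 407 and 305 FPKM in KO-labelled pachytene, against 166, 169 and 222 FPKM in WT pachytene. The groups were apart, with a log2 change of 0.97 (SE 0.24, adjusted p = 0.015) and of 0.62 after median-ratio scaling (adjusted p = 0.0251); without KO-labelled pachytene replicate 1 or 2 the adjusted p was 0.0562 or 0.0628. Eif2b3, the gamma subunit, was the exception: 126, 154 and 170.3 FPKM in KO-labelled pachytene overlapped with 115, 192 and 189 FPKM in WT pachytene. Between the stages in WT the subunits also diverged. Eif2b5 rose by 2.75 on the log2 scale, and by 0.73 after median-ratio scaling. Eif2b3 rose by 0.88 and, after median-ratio scaling, fell by 1.15 (adjusted p = 0.00488), so its direction rests on the scale. Eif2b1 was the most abundant subunit at pachytene, with 748 ± 114 FPKM in KO-labelled and 431 ± 83.5 FPKM in WT cells. Eif2b2 averaged 252 ± 41.7 and 156 ± 38.7 FPKM, and Eif2b4 575 ± 141 and 310.2 ± 91.1 FPKM, in KO-labelled and WT pachytene. These 3 were called higher on the spike-in scale and not after median-ratio scaling.

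The 4 kinases that phosphorylate eIF2 under stress were low next to the factors they act on. Eif2ak1, the heme-regulated kinase, was the most abundant, at 113 ± 20.3 FPKM in KO-labelled pachytene and 67.2 ± 17.2 FPKM in WT pachytene, and was called higher on the spike-in scale. Eif2ak3, the kinase of the unfolded protein response, was called lower there: 0.228, 0.649 and 0.435 FPKM in KO-labelled pachytene, against 3.90, 0.894 and 2.69 FPKM in WT pachytene. The groups were apart at very low levels. Its log2 change of -1.19 (SE 0.32, adjusted p = 0.0188) was not called after median-ratio scaling (-0.82, adjusted p = 0.0969), nor without KO-labelled pachytene replicate 1 (adjusted p = 0.0743) or WT pachytene replicate 1 (adjusted p = 0.0704). Eif2ak2, the kinase activated by double-stranded RNA, ran from 5.44 to 8.67 FPKM in KO-labelled pachytene and from 3.72 to 7.30 FPKM in WT pachytene. Eif2ak4, the sensor of amino acid shortage, averaged 4.19 ± 0.529 and 5.03 ± 0.843 FPKM in KO-labelled and WT pachytene. Neither was called.

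Of the 13 genes of eIF3, 11 were called higher in KO-labelled than in WT pachytene, beside 24.6% of all genes. The log2 changes of all 13 lay between 0.54 and 1.00. After median-ratio scaling 3 calls were left, beside 3.57% of all genes called higher. Eif3c, a core subunit, had 1049, 1006 and 831 FPKM in KO-labelled pachytene, against 482, 397 and 571 FPKM in WT pachytene. Eif3e had 3044, 2609.8 and 2246 FPKM in KO-labelled pachytene, against 1267, 1311 and 1689.6 FPKM in WT pachytene. Eif3h had 1590.3, 1337 and 1145 FPKM in KO-labelled pachytene, against 743, 742 and 843 FPKM in WT pachytene. Each of these had no overlap between the labels. Their log2 changes were 1.00 (SE 0.24) for Eif3c, 0.89 (SE 0.19) for Eif3e and 0.80 (SE 0.20) for Eif3h, with adjusted p of 0.0126, 0.00897 and 0.0147. After median-ratio scaling they were 0.65, 0.54 and 0.45. The calls of Eif3c and Eif3h were lost without KO-labelled pachytene replicate 1 or 2 (adjusted p = 0.0508 to 0.0676).

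Eif3g, an RNA-binding subunit, was the most abundant of eIF3, at 6121 ± 1074 FPKM in KO-labelled pachytene and 3793 ± 865 FPKM in WT pachytene. The lowest was Eif3j, a loosely bound subunit, at 52.2 ± 18.8 and 36.2 ± 20.9 FPKM in KO-labelled and WT pachytene; its KO-labelled LZ libraries ran from 0.441 to 19.0 FPKM, a spread in which no difference could be seen. Between the stages in WT, 12 of 13 were called higher by spike-ins, beside 80.9% of all genes. They were led by Eif3f (2.78) and Eif3k (2.75). After median-ratio scaling 4 were called higher and 1 lower, beside 20.4% and 17.8% of all genes, with Eif3f at 0.74 and Eif3k at 0.70. At LZ the core subunit Eif3b had 43.5, 36.5 and 40.2 FPKM in KO-labelled and 94.0, 85.0 and 58.1 FPKM in WT libraries, and Eif3i, which binds it, had 123, 174 and 162 FPKM in KO-labelled and 296, 239.7 and 217 FPKM in WT libraries. Both pairs of groups were apart, with log2 changes of -0.94 (SE 0.25, adjusted p = 0.0332) and -0.71 (SE 0.22, adjusted p = 0.0476). After median-ratio scaling neither was called, at -0.36 and -0.13.

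The cap-binding complex and its helicase cofactors make up 12 genes, of which 11 were tested. In KO-labelled pachytene 5 were called higher and 0 lower, beside 24.6% and 14.3% of all genes. After median-ratio scaling 2 were called higher and 0 lower, beside 3.57% and 9.62%. The 2 were Eif4g3 and Eif4h. Eif4g3, the eIF4G scaffold known from mouse spermatocytes, had 375, 343 and 261 FPKM in KO-labelled pachytene, against 208, 124 and 199 FPKM in WT pachytene. Its log2 change was 0.90 (SE 0.26, adjusted p = 0.023), and 0.55 after median-ratio scaling (adjusted p = 0.0456); the call was lost without KO-labelled pachytene replicate 1 or 2 or WT pachytene replicate 2 (adjusted p = 0.0784 to 0.0933). Eif4h, a cofactor that stimulates eIF4A, had 713, 655 and 539 FPKM in KO-labelled pachytene, against 327, 319 and 420.5 FPKM in WT pachytene. It changed by 0.84 (SE 0.21, adjusted p = 0.0159) and by 0.49 after median-ratio scaling (adjusted p = 0.0225), with adjusted p of 0.0506 to 0.0686 without KO-labelled replicate 1 or 2 or WT replicate 1 or 2.

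Eif4a2 and Eif4a1, which encode the paralogous eIF4A helicases, parted between the stages. Eif4a2 had 1180.1, 1097 and 1084 FPKM in KO-labelled pachytene and 667, 584 and 822 FPKM in WT pachytene, and 81.9, 84.0 and 90.9 FPKM in KO-labelled LZ and 100.4, 86.5 and 87.5 FPKM in WT LZ. Eif4a1 had 732, 749 and 634 FPKM in KO-labelled pachytene and 469, 719.6 and 775 FPKM in WT pachytene, and 223, 217 and 250.1 FPKM in KO-labelled LZ and 429, 320.3 and 277 FPKM in WT LZ. In WT the stage change of Eif4a2 was 2.89 (SE 0.18) and that of Eif4a1 0.92 (SE 0.22), both called. After median-ratio scaling they had opposite signs, 0.85 (adjusted p = 0.000779) for Eif4a2 and -1.13 (adjusted p = 0.000476) for Eif4a1.

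Eif4g3 and Eif4g1 behaved likewise. Eif4g3 had 16.9, 16.8 and 23.0 FPKM in KO-labelled LZ and 32.0, 24.5 and 19.2 FPKM in WT LZ, far below the pachytene values above. Eif4g1, the main eIF4G of most cells, had 18.01, 15.5 and 20.2 FPKM in KO-labelled pachytene and 27.8, 18.2 and 23.0 FPKM in WT pachytene, and 9.98, 4.93 and 9.51 FPKM in KO-labelled LZ and 22.0, 10.4 and 12.4 FPKM in WT LZ. The labels overlapped at pachytene and, by a narrow gap, did not at LZ. In WT the stage change of Eif4g3 was 2.75 (SE 0.26), or 0.74 after median-ratio scaling, called in both. That of Eif4g1 was 0.64 (SE 0.32, adjusted p = 0.0771), or 0.941 and called without WT LZ replicate 1, and -1.29 after median-ratio scaling (adjusted p = 0.00495).

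As shares, free of any scaling between libraries, Eif4a2 made up 61.4 ± 1.86% of Eif4a1 and Eif4a2 in KO-labelled pachytene and 51.7 ± 6.95% in WT pachytene, and 27.2 ± 0.665% in KO-labelled LZ and 21.4 ± 2.53% in WT LZ. Stages and labels were apart in each of these 4 comparisons, at the smallest exact permutation p of 0.1 (adjusted 0.24). Eif4g3 made up 94.6 ± 1.57% of Eif4g1 and Eif4g3 in KO-labelled pachytene and 88.3 ± 1.24% in WT pachytene, and 70.3 ± 7.21% in KO-labelled LZ and 63.4 ± 6.02% in WT LZ. These groups were apart too, with the exception of the labels at LZ (exact permutation p = 0.2). The coding sequences of Eif4a1 and Eif4a2 are identical at 78.2% of 1218 aligned bases and those of Eif4g1 and Eif4g3 at 67.8% of 4373.

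**Figure D4:**
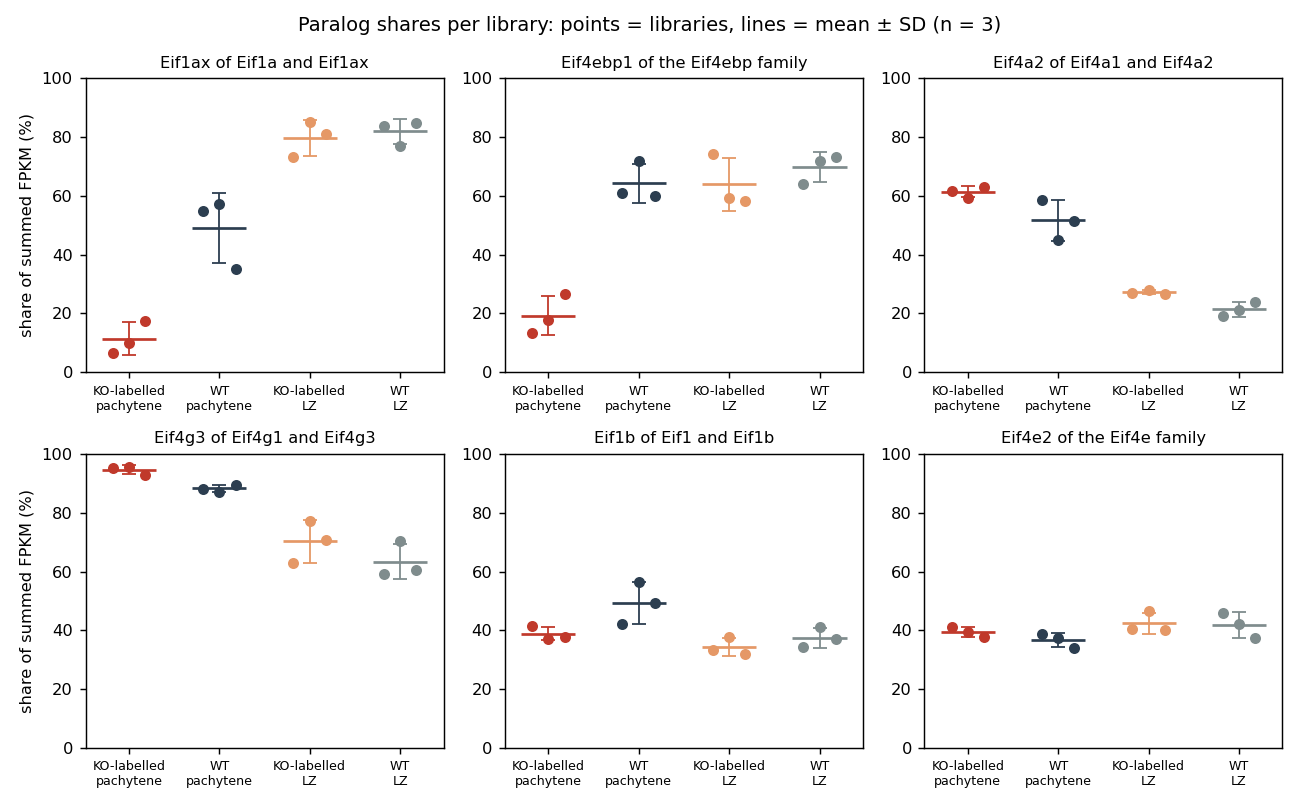
Share of 1 paralog in the summed FPKM of its pair or family (y axis, %) in each library, with the mean and SD of 3 libraries per group. The share of Eif1ax is 6.49 to 17.5% in KO-labelled pachytene and 73.1 to 85.1% over the LZ libraries, that of Eif4ebp1 is low in KO-labelled pachytene alone among the 4 groups, and those of Eif4a2 and Eif4g3 are higher at pachytene than at LZ.

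The starts of both pairs and of Eif1ax are shown because the paralogs of each pair parted while Eif1ax went against the family. The sequences are RefSeq's, build GRCm38.p6, from 250 bases before to 50 after the annotated start, and run 5′ to 3′ on the gene's strand. Capitals mark the E-box CACGTG and the core TGACG of the cAMP response element on either strand (CGTCA on the other), which can overlap.
Eif1ax, chrX:159371928-159372227, plus strand: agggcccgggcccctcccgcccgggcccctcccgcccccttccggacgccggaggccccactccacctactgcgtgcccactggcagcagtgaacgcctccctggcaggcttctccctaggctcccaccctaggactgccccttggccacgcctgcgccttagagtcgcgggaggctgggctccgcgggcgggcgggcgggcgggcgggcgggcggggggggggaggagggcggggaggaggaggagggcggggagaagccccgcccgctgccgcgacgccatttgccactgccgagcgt
Eif4a1, chr11:69672374-69672673, minus strand: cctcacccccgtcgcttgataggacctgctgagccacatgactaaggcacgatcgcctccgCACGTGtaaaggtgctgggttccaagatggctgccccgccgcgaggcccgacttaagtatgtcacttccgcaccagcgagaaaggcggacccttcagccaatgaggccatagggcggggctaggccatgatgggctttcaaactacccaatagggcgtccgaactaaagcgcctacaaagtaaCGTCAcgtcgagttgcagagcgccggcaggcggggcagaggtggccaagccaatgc
Eif4a2, chr16:23107218-23107517, plus strand: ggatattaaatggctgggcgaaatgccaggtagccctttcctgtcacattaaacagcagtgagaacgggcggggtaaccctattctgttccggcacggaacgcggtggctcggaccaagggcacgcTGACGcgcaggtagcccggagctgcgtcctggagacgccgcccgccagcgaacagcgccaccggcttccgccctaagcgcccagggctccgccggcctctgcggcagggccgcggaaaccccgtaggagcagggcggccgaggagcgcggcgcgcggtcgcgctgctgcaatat
Eif4g1, chr16:20672477-20672776, plus strand: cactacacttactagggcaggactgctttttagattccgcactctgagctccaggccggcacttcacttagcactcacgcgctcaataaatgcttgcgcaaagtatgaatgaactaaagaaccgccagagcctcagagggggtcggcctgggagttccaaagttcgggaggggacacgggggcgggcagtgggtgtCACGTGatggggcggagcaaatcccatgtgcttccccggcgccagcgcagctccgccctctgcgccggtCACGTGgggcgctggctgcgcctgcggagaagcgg
Eif4g3, chr4:137993205-137993504, plus strand: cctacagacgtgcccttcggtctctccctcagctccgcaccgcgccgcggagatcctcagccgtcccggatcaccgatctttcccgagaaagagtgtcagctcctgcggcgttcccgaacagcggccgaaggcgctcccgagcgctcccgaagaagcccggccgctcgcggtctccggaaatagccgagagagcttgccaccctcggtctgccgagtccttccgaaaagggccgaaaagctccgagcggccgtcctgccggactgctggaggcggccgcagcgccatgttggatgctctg
Eif4a1 holds 1 E-box and 1 response element core, Eif4g1 holds 2 E-boxes, Eif4a2 holds 1 response element core, and Eif4g3 and Eif1ax hold neither. Of 27025 RefSeq promoters of 300 bases, 7.24% hold the E-box and 21.0% the core. Of the 44 members with a promoter in the table, 8 hold the E-box and 20 the core. A match is a string of letters and not a measured binding site, and nothing was measured here on the factors that bind it.

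Eif4e averaged 811 ± 131 FPKM in KO-labelled pachytene and 579 ± 113 FPKM in WT pachytene, without a call (adjusted p = 0.0613). At LZ it had 72.3, 70.5 and 85.0 FPKM in KO-labelled and 122, 123 and 113 FPKM in WT libraries, apart, at a log2 change of -0.65 (SE 0.20, adjusted p = 0.0467) that was not called after median-ratio scaling (-0.07) and turned to 0.0258 when libraries were scaled to equal totals. Eif4e2, a cap-binding repressor, made up 39.5 ± 1.70% of the Eif4e family in KO-labelled pachytene and 36.7 ± 2.41% in WT pachytene, and 42.4 ± 3.61% in KO-labelled LZ and 41.8 ± 4.40% in WT LZ, overlapping throughout. Eif4e3 stayed under 1% of the family in all 12 libraries. Eif4e1b, a germline member, was listed at 0 in the 3 KO-labelled pachytene libraries and in 2 of 3 WT pachytene libraries, with 0.410 FPKM in the third. Eif4a3, a helicase of the exon junction complex, Eif4b, a helicase cofactor, and Eif4g2, which drives cap-independent initiation, averaged 785 ± 162, 167 ± 14.3 and 491 ± 40.9 FPKM in KO-labelled pachytene. In WT pachytene they averaged 599 ± 146, 96.3 ± 9.85 and 333 ± 96.8 FPKM. Eif4b was called higher by spike-ins, and none of the 3 after median-ratio scaling.

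Among the 4 proteins that bind eIF4E and hold it back, limma called 0 higher in KO-labelled pachytene, beside 24.6% of all genes. At an unadjusted p under 0.05 by limma, 1 was higher, and all genes were not counted at that threshold. In the other direction 1 was called lower, beside 14.3% of all genes. The lower one was Eif4ebp1, the substrate of mTOR that releases eIF4E once phosphorylated. It had 20.8, 30.1 and 38.5 FPKM in KO-labelled pachytene, against 154, 178 and 140.0 FPKM in WT pachytene. Every WT library was far above every KO-labelled one. The log2 change was -2.40 (SE 0.24, adjusted p = 0.00023), and -2.67 after median-ratio scaling (adjusted p = 0.000842); 324 of 15400 genes had a lower change. At LZ it had 53.8, 51.9 and 50.6 FPKM in KO-labelled and 102, 77.3 and 69.1 FPKM in WT libraries, apart on the spike-in scale but not called (adjusted p = 0.0834). After median-ratio scaling they overlapped, at a log2 change of -0.06 (adjusted p = 0.928). From LZ to pachytene its log2 change was -0.83 in KO-labelled cells (adjusted p = 0.00552) and 0.93 in WT cells (adjusted p = 0.00275). After median-ratio scaling both were called lower at pachytene, at -3.71 in KO-labelled cells and -1.11 in WT cells.

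The relatives of Eif4ebp1 did not share this. Eif4ebp3 had 130.3, 132 and 105 FPKM in KO-labelled pachytene, against 95.5, 67.5 and 87.4 FPKM in WT pachytene, apart but not called, and Eif4ebp2 was at 1.18 to 7.04 FPKM in KO-labelled and 2.59 to 6.28 FPKM in WT pachytene. Eif4ebp1 made up 19.2 ± 6.73% of the family of 3 in KO-labelled pachytene and 64.2 ± 6.55% in WT pachytene, and 63.9 ± 9.02% in KO-labelled LZ and 69.7 ± 5.03% in WT LZ. The labels were apart at pachytene and both stages were apart in KO-labelled cells, at the smallest exact permutation p of 0.1; the other 2 comparisons overlapped. Set against Eif4e, a ratio chosen after its values were seen, Eif4ebp1 stood at 3.86 ± 1.78% in KO-labelled pachytene and 28.1 ± 7.41% in WT pachytene, and at 69.2 ± 8.36% in KO-labelled LZ and 69.3 ± 12.6% in WT LZ. Eif4enif1, which ferries eIF4E into the nucleus and into RNA granules, averaged 117 ± 6.19 and 77.5 ± 16.4 FPKM in KO-labelled and WT pachytene, without a call.

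Of the 5 genes of subunit joining and of eIF5A and eIF6, limma called 0 between the labels at either stage. On the spike-in scale 24.6% of all genes were called higher and 14.3% lower at pachytene, and 0.136% and 12.9% at LZ. At an unadjusted p under 0.05, 1 of the 5 was higher at pachytene and 4 lower at LZ on that scale. All genes were not counted at that threshold, and their median log2 change at LZ was -0.43. Eif5a, the hypusine-carrying factor of elongation and termination, was among the most abundant of the family, at 7101, 6314 and 4615 FPKM in KO-labelled pachytene and 2759, 5615 and 5463 FPKM in WT pachytene, which overlap. Its relative Eif5a2 made up 0.595 ± 0.215% of the pair in KO-labelled pachytene and 0.750 ± 0.328% in WT pachytene. Eif5b, the GTPase of subunit joining, was nearly level, at 131, 121 and 118 FPKM in KO-labelled and 110.0, 117 and 118 FPKM in WT pachytene. Eif5, which triggers GTP hydrolysis by eIF2, rose between the stages in WT by 2.83 on the log2 scale, or by 0.78 after median-ratio scaling, called in both. Eif6, which keeps the subunits apart, averaged 464 ± 43.5 FPKM in KO-labelled pachytene and 350.0 ± 68.5 FPKM in WT pachytene.

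The symbols Eif2c1 to Eif2c4 are former names of Ago1 to Ago4, the Argonaute proteins that carry small RNAs, and these 4 genes are no initiation factors. Of the 55, leaving them out kept the median log2 change at pachytene at 0.65. Eif2c4, known in mice for a part in meiotic silencing, had 82.8, 76.6 and 69.3 FPKM in KO-labelled pachytene, against 37.3, 26.5 and 38.2 FPKM in WT pachytene. It was at 1.94, 2.72 and 5.33 FPKM in KO-labelled LZ and 3.01, 3.84 and 2.21 FPKM in WT LZ. The labels were apart at pachytene, at a log2 change of 1.16 (SE 0.30, adjusted p = 0.0164), which was not called after median-ratio scaling (0.79, adjusted p = 0.0606) or without KO-labelled pachytene replicate 1 or 2 or WT pachytene replicate 2 (adjusted p = 0.0567 to 0.0645). Its stage change in WT, 3.12, was the largest of the 55 genes, and was 1.31 after median-ratio scaling (adjusted p = 0.00205). The other 3 ran from 1.78 to 9.59 FPKM in KO-labelled pachytene and from 1.49 to 7.66 FPKM in WT pachytene, without a call.

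Whether the label's difference itself changed between the stages was tested as an interaction, the change at pachytene minus that at LZ. On the spike-in scale 33 genes were called higher, beside 34.9% of all genes, and 2 lower, beside 3.49%. After median-ratio scaling 3 were called, Eif1 upward (2.37% of all genes were called so) and Eif1ax and Eif4ebp1 downward (4.36%). The interaction was 1.92 for Eif1 (SE 0.30, adjusted p = 0.00493), -1.40 for Eif1ax (SE 0.42, adjusted p = 0.0209) and -1.76 for Eif4ebp1 (SE 0.34, adjusted p = 0.00509) on the spike-in scale. After median-ratio scaling these were 0.98, -2.27 and -2.60. The call of Eif1ax was lost on the spike-in scale without KO-labelled pachytene replicate 1 or 2 or WT pachytene replicate 2 (adjusted p = 0.051 to 0.0578).

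A wider list of 56 translation genes outside this family, with elongation and release factors, poly(A)-binding proteins and the mTOR arm was counted for comparison; it was chosen with earlier results known. Of 52 tested, 20 were called higher and 2 lower in KO-labelled pachytene, beside 24.6% and 14.3% of all genes, and 6 and 2 after median-ratio scaling, beside 3.57% and 9.62%, with a median log2 change of 0.52 against 0.37 for all genes. At LZ limma called 0 higher and 9 lower, beside 0.136% and 12.9% of all genes, and 0 in either direction after median-ratio scaling, beside 0.39% and 0.688%. In WT 44 rose and 0 fell between the stages, beside 80.9% and 0.487% of all genes, and 7 rose and 13 fell after median-ratio scaling, beside 20.4% and 17.8%. Pabpc1, the main cytoplasmic poly(A)-binding protein, averaged 9335 ± 1032 and 4589 ± 1056 FPKM in KO-labelled and WT pachytene, and 388 ± 22.7 and 487 ± 91.8 FPKM in KO-labelled and WT LZ. Its stage change in WT was 3.22 (1.17 after median-ratio scaling), beside 3.22 for its relative Pabpc6 and 3.12 for Larp1, which binds mRNAs of the translation machinery. Pabpc4, another poly(A)-binding protein, averaged 1.70 ± 0.481 FPKM in KO-labelled pachytene and 4.75 ± 0.327 FPKM in WT pachytene, a log2 change of -1.10 (SE 0.31, adjusted p = 0.0211). Habp4 was lower at both stages on the spike-in scale, by -1.04 at pachytene and -1.35 at LZ. Pabpc6 changed by 1.21 at pachytene and by -1.28 at LZ, and Pabpc2, an intronless relative, by -1.59 at LZ. Of these label changes, that of Habp4 at pachytene alone was called after median-ratio scaling (adjusted p = 0.0326), and each lost its call without replicate 1 or 2 of WT or without some KO-labelled replicate of its stage: replicate 1 or 2 at pachytene (adjusted p = 0.0503 to 0.149 over these 4 libraries) and replicate 2 or 3 at LZ (adjusted p = 0.0555 to 0.17).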

How the data were processed

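Polyadenylated RNA of sorted mouse spermatocytes was sequenced as amplified cDNA in 12 libraries, 3 in each of 4 groups taken from the labels. The values are FPKM as deposited by the authors, scaled by ERCC spike-ins; TopHat2 2.1.1 and Cufflinks 2.2.1 and the mouse build mm9 are named in the submitters' processing notes. The annotation, filters and scaling formula are not given in the sources used here, read depth is unknown, and 4 columns without a name were not used. Neither counts nor intervals of counting error could be had.

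Values were tested as log2(FPKM + 1) with limma 3.58.1 in R 4.3.3, with a variance trend, 1 mean per group over all 12 libraries and two-sided Benjamini-Hochberg adjusted p-values over all 15400 genes tested. The code was tested on simulated data. Paralog shares are percent of summed deposited FPKM within a library, compared by exact two-sided permutation tests. Coding identity and promoters came from GENCODE and RefSeq on GRCm38, whose coordinates were not joined with the files.

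The members, lists, roles and tests were chosen with earlier results of these data known. In each role the genes named were the most and least abundant, those with the largest changes relative to the median of all genes in each comparison, every gene called between the labels or in the interaction after median-ratio scaling, and every gene of a paralog share; the others named complete a role and were chosen after their values were seen. Alternatives were other pseudocounts, filters and scalings, no variance trend, a replicate block, fits of 6 libraries, leaving out each library and leaving out the Argonaute genes.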

Additional observations from a re-analysis of the deposited data

Results flagged for a closer look

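For 3 genes the difference between the labels itself differed between the stages in limma's interaction test, on the spike-in scale and after median-ratio scaling. The log2 change at pachytene minus that at LZ was 1.92 for Eif1, -1.40 for Eif1ax and -1.76 for Eif4ebp1 on the spike-in scale. Eif1 was higher in all 3 KO-labelled than in all 3 WT pachytene libraries and overlapped at LZ. Eif1ax and Eif4ebp1 were lower in all 3 KO-labelled libraries than in all 3 WT libraries at pachytene. At LZ they were so on the spike-in scale, where the median of all genes was -0.43, and overlapped after median-ratio scaling. Summed pachytene markers, in the pachytene libraries, and summed markers of some other testis cells given in the report also differed between the labels. Their part was not tested.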

How the results depend on the processing

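After median-ratio scaling, scaling to equal totals and the FPKM before spike-in scaling, in that order, the genes called higher in KO-labelled than in WT pachytene numbered 8, 2 and 1, with median log2 changes of 0.30, 0.073 and 0.0069. In the same order the WT stage comparison gave 12, 5 and 5 higher and 13, 18 and 19 lower, with medians of -0.042, -0.33 and -0.25. The KO-labelled stage comparison gave 24, 4 and 7 higher and 14, 23 and 24 lower, with medians of 0.25, -0.33 and -0.31. The interaction gave 1, 1 and 1 higher, with medians of 0.21, -0.11 and -0.060. At LZ the 4 genes called lower between the labels became 0, 0 and 0, with medians of 0.040, 0.13 and 0.047. Calls over all genes, in either direction and in the same order, numbered 2032, 1784 and 1707 between the labels at pachytene. Between the stages they numbered 5883, 5870 and 6139 in WT and 9386, 9258 and 9255 in KO-labelled cells. For the interaction they numbered 1036, 1067 and 950, and between the labels at LZ 166, 203 and 321.

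WT stage changes turned round under those 3 scalings, in the same order, to -0.39, -0.68 and -0.65 for Eif1, to -1.75, -2.04 and -1.9997 for Eif1ax, and to -1.15, -1.44 and -1.40 for Eif2b3. They turned to -1.13, -1.41 and -1.38 for Eif4a1, to -1.29, -1.60 and -1.47 for Eif4g1, and to -1.11, -1.40 and -1.35 for Eif4ebp1. With equal totals, Eif1 between the stages in KO-labelled cells became -0.016 and Eif4e between the labels at LZ 0.026. The cause was not tested. Eif1, Eif1ax and Eif4ebp1 kept their direction and call between the labels at pachytene under these scalings.

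The LZ count of 4 lower also became 7 with a pseudocount of 0.1, 1 with 5, 0 with no filter, 8 with a filter at 5 FPKM, 1 without the variance trend and 0 in a fit of the 6 libraries alone. Over all genes tested in each setting, calls in either direction numbered 2380, 1108, 904, 2458, 1510 and 0, in that order. Leaving out 1 library gave 0 to 14 lower and a median of -0.61 to -0.37 at LZ, 3 to 31 higher, 2 to 3 lower and a median of 0.52 to 0.73 at pachytene, 48 to 49 higher and a median of 1.84 to 2.09 between the stages in WT, 49 to 51 higher, 2 lower and a median of 3.06 to 3.39 in KO-labelled cells, and 25 to 37 higher, 1 to 2 lower and a median of 1.01 to 1.24 for the interaction. Calls over all genes in the same fits, in either direction, moved as well. They numbered 4 to 2936 at LZ and 1348 to 6952 at pachytene. Between the stages they numbered 11528 to 12481 in WT and 11830 to 12214 in KO-labelled cells, and for the interaction 3749 to 6445.

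Whether replicate numbers pair the libraries could not be decided. In no comparison did every same-numbered pair deviate together at a correlation over 0.1, and not every library correlated best with its own number. Same-numbered pachytene and LZ libraries all correlated positively, however: 0.163, 0.137 and 0.027 for WT replicates 1, 2 and 3, and 0.083, 0.259 and 0.141 for KO-labelled ones. Different numbers reached 0.157 (KO-labelled pachytene replicate 3, LZ replicate 1). Across the labels, same-numbered values had both signs, with extremes of -0.167 (pachytene) and 0.219 (LZ). With the replicate block 23 were called higher and 3 lower at pachytene, 0 higher and 1 lower at LZ, 49 and 0 between the stages in WT, 51 and 2 in KO-labelled cells, and 33 and 2 for the interaction. Over all genes the block gave 5398, 2095, 12742, 12383 and 5439 calls in either direction, in that order.

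Read depth is unknown, and no counting error is given for low values such as those of Eif2ak3 and Eif4e1b. With 3 libraries a group, the smallest exact permutation p of a share is 0.1. Spike-in amounts per cell were not stated.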
